A study of Rattus norvegicus with 9 samples.

Results

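The genes described here code for membrane carriers and pumps of inorganic ions, phosphate and metals. They were taken by gene symbol, as every probe set with 1 symbol from the solute carrier families Slc4, Slc8, Slc9, Slc11, Slc12, Slc20, Slc24, Slc26, Slc30, Slc34, Slc39, Slc40 and Slc41 or from the Na,K-ATPase genes Atp1a and Atp1b. The rule found 100 of the array's 31042 probe sets that are not controls, and these belong to 73 genes. The choice was by name and used no signal threshold. One of the 73, Slc4a1ap, is matched by its name only, since it codes for a protein that binds the Slc4a1 product and is itself no carrier.

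The RNA was that of Sprague-Dawley rats at embryonic day 13, dissected with no culture, and the labels name no genotype or agent besides the digestion given here. It was hybridised to 9 single-colour Affymetrix arrays, 3 for each of 3 tissues. WD stands for the Wolffian duct, the epithelial tube that gives rise to the collecting system. Each WD array holds a pool of about 100 ducts dissected without enzyme. The ureteric bud (UB) is its branching outgrowth. Each UB array holds about 100 buds separated from the kidney mesenchyme with mild trypsin digestion, so tissue and digestion cannot be told apart. WD+IM is the Wolffian duct with attached mesodermal cells, about 50 to an array, and so a mixture of epithelium and mesoderm in which fewer cells of a type and less RNA per cell cannot be told apart. Per the labels, arrays of 1 tissue are biological replicates.

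As background, an epithelial cell runs most of its transport on the sodium gradient that the Na,K-ATPase sets up. Slc4 and Slc9 proteins use it or the chloride gradient to move bicarbonate and protons. Slc8 and Slc24 proteins use the sodium gradient to expel calcium, and Slc20 and Slc34 proteins to take up phosphate. Slc12 proteins move chloride together with sodium or potassium. Slc39 proteins bring zinc and other metals into the cytosol, Slc30 proteins take zinc out of it, and ferroportin (Slc40a1) is the known exporter of iron from cells. In the mature nephron and collecting duct these carriers do the kidney's work of reabsorption and acid secretion. The embryonic bud and duct precede that function.

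The arrays differed in ways that touch these genes. Median signals ran from 534 to 897 intensity units. Of the RNAs spiked in as controls, bioC gave 2.87 to 2.99 times the signal of bioB on every UB array and on WD+IM replicate 3. The ratio was 1.02 to 1.23 on the other 5 arrays. Those 4 arrays also had the weakest low signals, with a 10th percentile of 26.9 to 35.3 against 55.7 to 76.8. A term for this ratio can therefore separate it from tissue in UB against WD only through WD+IM replicate 3, and values with that term are called spike-adjusted below. The beta-actin 3' to 5' signal ratio, a measure of RNA integrity, was 2.19 to 4.87 in the WD, 1.48 to 2.30 in the UB and 1.47 to 1.92 in WD+IM. The tissue labels were checked against marker genes. The summed signal of 11 duct epithelial genes such as Pax2 and Krt8 was 195627 to 204972 in the UB, 227955 to 248961 in the WD and 76806 to 112333 in WD+IM. For 12 mesenchymal genes such as Col1a1 and Pdgfra it was 11677 to 16108, 103144 to 142355 and 234507 to 272018 in the same order. For 11 red cell genes it was 12358 to 40317, 233266 to 356845 and 218579 to 316174, for 13 macrophage genes 2250 to 3397, 5273 to 8196 and 7508 to 10862, and for 13 endothelial genes 4439 to 5971, 6201 to 7601 and 49883 to 51140. No marker gene of these lists was at 0 on any array. The WD arrays thus also held mesenchymal and red cell signal, above that of every UB array. The UB arrays held signal of other lists too. For 7 neural genes the sum was 9987 to 12299 in the UB, 3328 to 4195 in the WD and 3623 to 4230 in WD+IM. For 5 nephron progenitor genes it was 19264 to 25055, 29976 to 32955 and 71555 to 85941 in the same order. In UB against WD too, fewer cells of a type and less RNA per cell cannot be told apart. The part of these markers in the differences below was not tested.

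**Figure D1:**
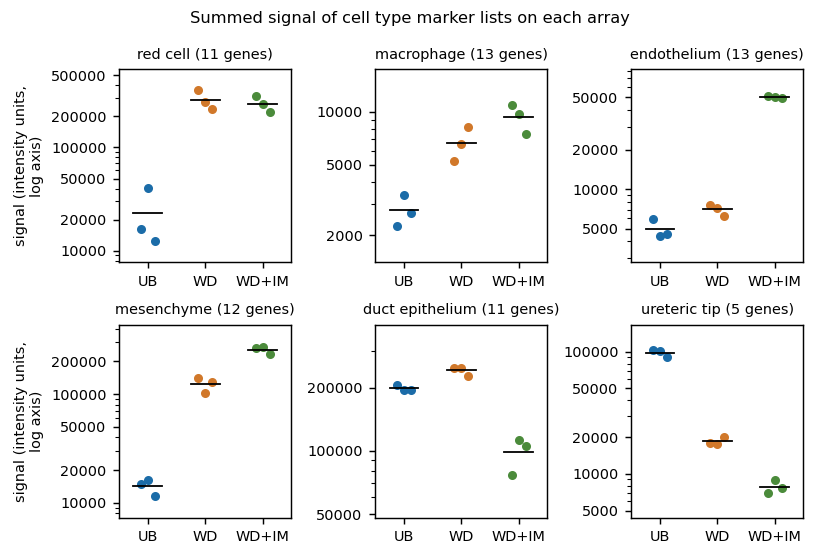
Summed signal of 6 cell type marker lists in intensity units (vertical log axis) on each of the 9 arrays (points), by tissue, with the group mean as a line. The red cell, macrophage and mesenchyme sums lie lower on all 3 UB arrays than on the other 6 arrays, and the endothelial sums of WD+IM are at least 49883 against at most 7601 elsewhere.

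Of the 73 genes, 52 had a signal high enough to be tested, with 64 of their probe sets. The requirement was a signal over the array's own 40th percentile on 3 or more of the 9 arrays. Where a gene has several probe sets, the one with the highest mean stands for it. The other 21 genes had single-array signals of 2.38 to 596, and no difference is given for them. They are the apical carriers of the mature nephron Slc12a1, Slc12a3, Slc34a1, Slc34a3 and Slc9a3, the anion carriers Slc26a2, Slc26a3, Slc26a4, Slc26a5 and Slc26a10, and Slc4a10, Slc12a8, Atp1a4, Atp1b4, Slc24a1, Slc8a3, Slc9a4, Slc34a2, Slc30a10, Slc39a2 and Slc39a5. No detection calls were used, so a weak signal cannot be told from background, and these genes are neither shown to be expressed nor to be absent. Since signals of different probe sets depend on the probes, levels are compared between tissues and not between genes.

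In UB against WD, 3 of the 52 genes rose in the UB (Slc24a4, Atp1b3 and Slc20a1) and 14 fell, at an adjusted p under 0.05 in limma. Over all 10800 genes tested, 13.4% rose and 19.6% fell, so the transporters' shares of 5.77% and 26.9% lay below and above the background, a difference that was not tested. The median of the 52 log2 differences was -0.36, against -0.075 over all genes. In WD+IM against WD, 3 rose (Slc24a4, Slc39a8 and Atp1b3) and 6 fell (Slc4a4, Atp1b1, Slc8a1, Slc4a11, Slc39a11 and Slc39a10), 5.77% and 11.5% against a background of 6.47% and 8.24%. The median was -0.04, against -0.014 over all genes. In UB against WD+IM, 5 rose (Atp1b1, Slc26a8, Slc8a1, Slc39a10 and Slc39a11) and 9 fell, 9.62% and 17.3% against 13.6% and 16.6%. The median was -0.25, against -0.012 over all genes. Each pair of comparisons has 3 arrays in common, so their results are not independent. The groups did not overlap for 6 genes with higher and 19 with lower signals in UB against WD, where 22.1% and 29.7% of all genes did so. The counts were 8 and 11 in WD+IM against WD, with a background of 15.2% and 17.2%, and 9 and 15 in UB against WD+IM, with 24.2% and 25.7%. By mean log2 signal the UB was the lowest of the 3 tissues for 28 of the 52 genes and the highest for 11, while over all genes tested it was lowest for 41.7% and highest for 35.8%. Of the calls made in these 3 comparisons, none changed sign in any of the alternative fits. The deposited signals share 1 trimmed mean on all arrays, and the balance of rises and falls holds relative to that scale. Over all probe sets the median difference of UB against WD was -0.121 as deposited, 0.036 after quantile normalization and 0.34 after median centring. The transporters called higher and lower in UB against WD were 3 and 14 as deposited, 2 and 6 after quantile normalization and 9 and 6 after median centring. With the spike-ratio term they were 2 and 2, and without UB replicate 1 they were 2 and 8. In UB against WD+IM the counts of 5 and 9 became 9 and 8 after median centring, 1 and 6 with the spike-ratio term, and 1 and 6 within the 4 arrays of high spike ratio. The 5 rises there became 2 without UB replicate 1 or 2 and 3 without UB replicate 3 or WD+IM replicate 1 or 2. In WD+IM against WD the counts of 3 and 6 became 2 and 3 within the 5 arrays of low spike ratio, and no set of arrays on 1 side of the split holds both UB and WD.

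**Figure D2:**
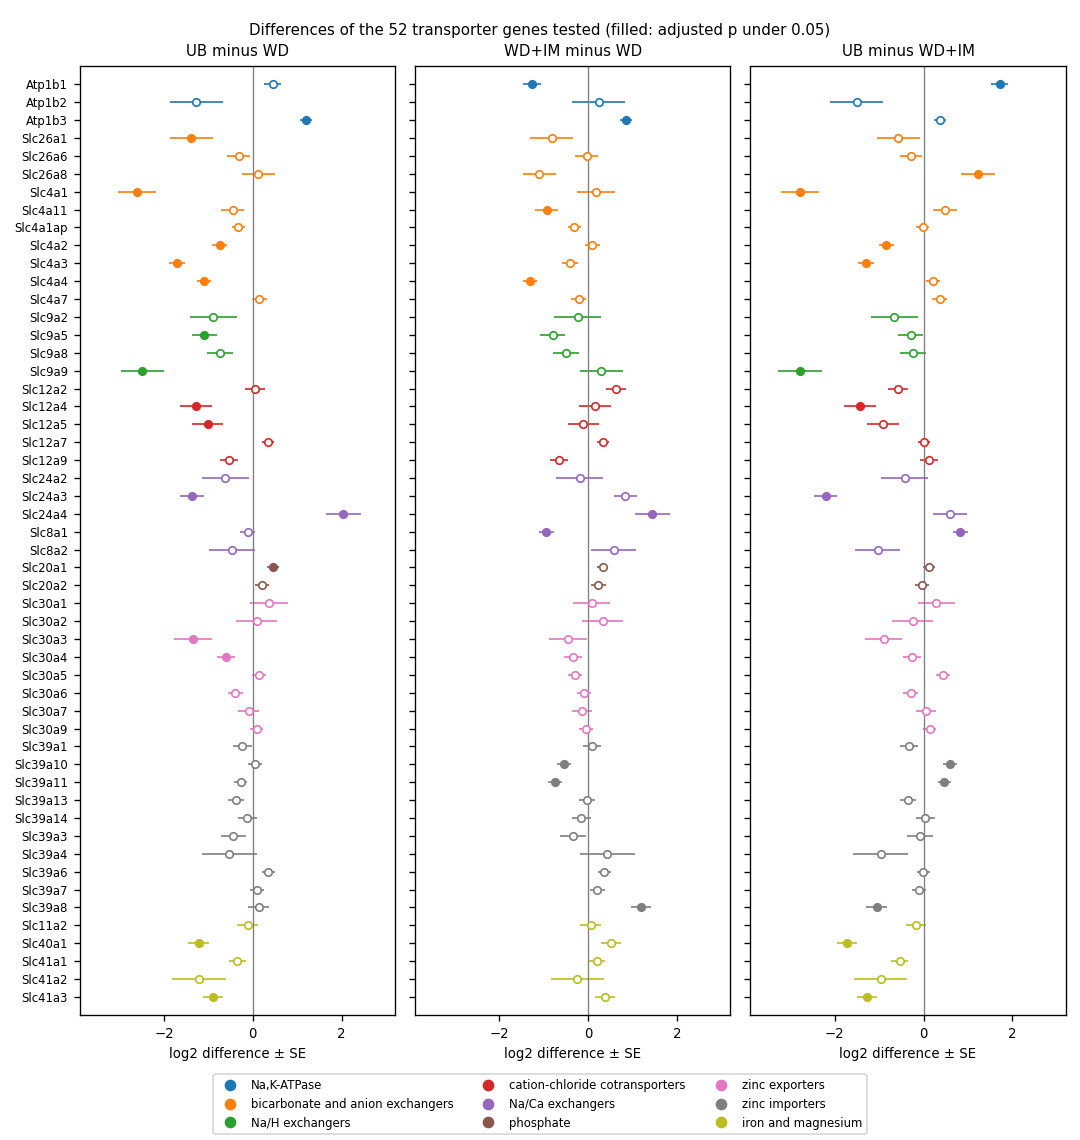
Log2 differences (horizontal axis, with standard errors as bars) of the 52 transporter genes tested, coloured by family, in UB minus WD, WD+IM minus WD and UB minus WD+IM. Filled points passed an adjusted p of 0.05, and in the UB minus WD panel 14 of the 17 filled points lie to the left of 0.

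Of the Na,K-ATPase beta chains Atp1b1 fell and Atp1b3 rose in WD+IM against WD, and Atp1b3 also rose in UB against WD. The beta chains bring the catalytic alpha chain to the membrane. Atp1b1, the main beta chain of kidney epithelia, had signals of 12838, 10534 and 12161 in the UB, 8091, 7845 and 10170 in the WD and 3704, 4655 and 2627 in WD+IM. Each WD+IM array lay below all UB and WD arrays, and each UB array lay above all WD arrays. It was lower in WD+IM than in the WD (log2 difference -1.27 ± 0.20, adjusted p = 0.00125, limma as for all adjusted p-values here) and higher in the UB than in WD+IM (1.71 ± 0.20, adjusted p = 3.82e-05), while UB against WD gave 0.45 ± 0.20, adjusted p = 0.104. UB against WD reached an adjusted p of 0.00464 after median centring, 0.0413 in a fit of these 2 groups alone and 0.0496 without WD+IM replicate 3. A second probe set of Atp1b1 had 7032, 8363 and 7126 in the UB, 4427, 7400 and 5765 in the WD and 1975, 2711 and 2536 in WD+IM. WD+IM was again lowest, but here UB and WD overlapped (0.38 ± 0.20, adjusted p = 0.162). Its other differences were -1.25 ± 0.20, adjusted p = 0.00135 for WD+IM against WD and 1.63 ± 0.20, adjusted p = 5.70e-05 for UB against WD+IM. Atp1b3, a beta chain found in many tissues, had signals of 16496, 14563 and 16095 in the UB, 7300, 5701 and 7454 in the WD and 11490, 12178 and 13014 in WD+IM. Here the 3 WD arrays were the lowest and no 2 tissues overlapped. Atp1b3 rose in the UB over the WD (1.21 ± 0.14, 2.31-fold, adjusted p = 6.19e-05) and in WD+IM over the WD (0.85 ± 0.14, 1.8-fold, adjusted p = 0.00158), and UB against WD+IM gave 0.36 ± 0.14, adjusted p = 0.0736 (0.0158 after median centring, 0.0332 without WD replicate 2). Both Atp1b3 calls held in the spike-adjusted fit (1.07 ± 0.25, adjusted p = 0.0382 and 0.80 ± 0.15, adjusted p = 0.00801), as did those of Atp1b1 (-1.05 ± 0.18, adjusted p = 0.0039 and 2.15 ± 0.22, adjusted p = 9.06e-05). Atp1b2, known from neurons and glia, was not called in any comparison (-1.27 ± 0.59, adjusted p = 0.126 for UB against WD), with signals of 293, 30.7 and 257 in the UB, 608, 244 and 533 in the WD and 701, 611 and 322 in WD+IM.

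FXYD proteins are small regulators that bind the Na,K-ATPase, and 5 of the 7 were tested. None rose and 2 fell in UB against WD (Fxyd5 and Fxyd7), 0% and 40% against 13.4% and 19.6% of all genes. In WD+IM against WD 1 rose (Fxyd6) and 0 fell, 20% and 0% against 6.47% and 8.24%. In UB against WD+IM 0 rose and 3 fell, 0% and 60% against 13.6% and 16.6%. The medians of the 5 differences were -0.81, 0.22 and -1.29 in these comparisons. Fxyd6 had signals of 5264, 5198 and 5921 in the UB, 6701, 5565 and 7833 in the WD and 12838, 13991 and 13436 in WD+IM, so that WD+IM held all the high values (1.01 ± 0.14, adjusted p = 0.000764 against the WD). Fxyd5 gave 234, 236 and 86 in the UB against 1067, 1075 and 773 in the WD (-2.20 ± 0.35, adjusted p = 0.000688). Fxyd7 gave 25.8, 27.5 and 57.6 in the UB, in part below the added constant of 46, and 561, 744 and 591 in the WD (-3.04 ± 0.48, adjusted p = 0.00071), with WD+IM between at 209.7, 277 and 179. Fxyd2, the gamma chain of the mature tubule's pump, and Fxyd4, known from the mature collecting duct, were below the filter.

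**Figure D3:**
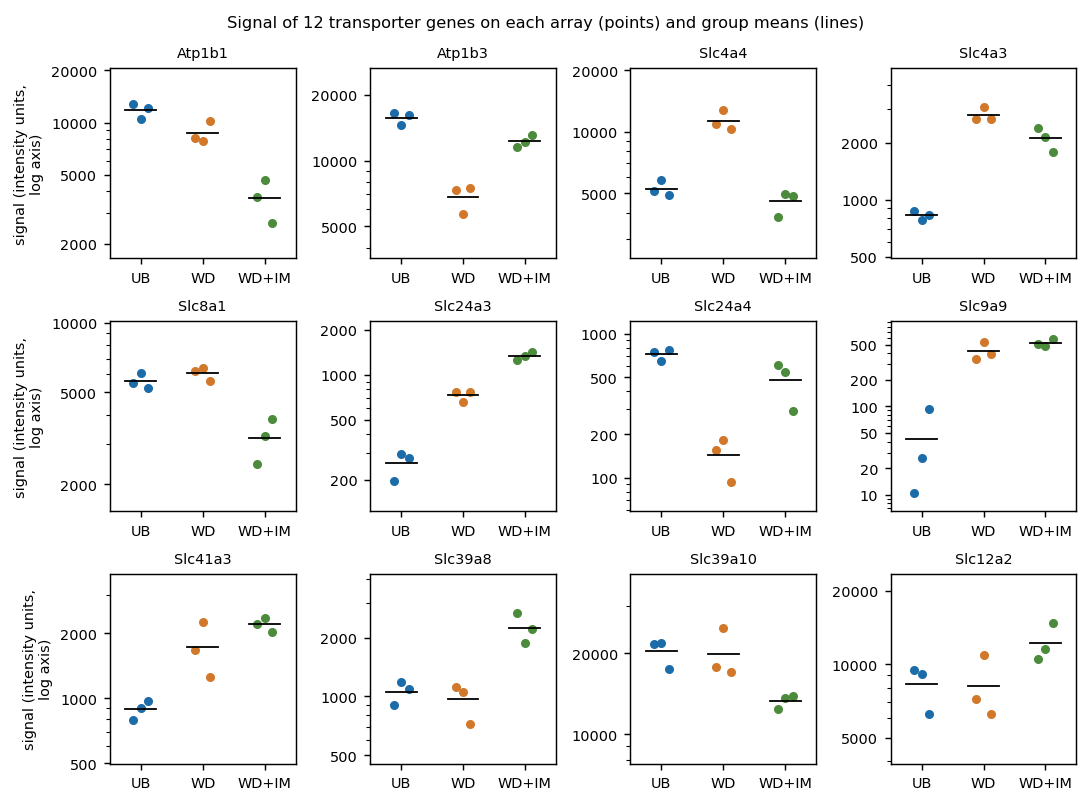
Signal in intensity units (vertical log axis) of 12 transporter genes on each array (points) by tissue, with group means as lines. Atp1b1 and Slc8a1 are lowest on the WD+IM arrays, Slc4a4 is highest on the WD arrays, and Slc4a3, Slc24a3, Slc9a9 and Slc41a3 are lowest on the UB arrays.

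Among the Slc4 and Slc26 genes, falls and no rises were called in the UB against the WD. Of 10 tested genes of the Slc4 and Slc26 families, 0 rose and 5 fell in UB against WD (Slc4a1, Slc4a2, Slc4a3, Slc4a4 and Slc26a1, median over the 10 -0.60). The shares were 0% and 50%, against 13.4% and 19.6% of all genes. In WD+IM against WD 0 rose and 2 fell (Slc4a4 and Slc4a11, median -0.36), 0% and 20% against 6.47% and 8.24%. In UB against WD+IM 1 rose (Slc26a8) and 3 fell (Slc4a1, Slc4a2 and Slc4a3, median -0.15), 10% and 30% against 13.6% and 16.6%. Slc4a4, the sodium-bicarbonate cotransporter of the proximal tubule's basolateral membrane, had signals of 5129, 5783 and 4889 in the UB, 10922, 12742 and 10287 in the WD and 3834, 4971 and 4870 in WD+IM. The WD arrays were the highest, above every UB and WD+IM array. The WD exceeded the UB (UB against WD -1.09 ± 0.15, adjusted p = 0.000285) and WD+IM (WD+IM against WD -1.31 ± 0.15, adjusted p = 0.000209), while UB and WD+IM differed by 0.21 ± 0.15, adjusted p = 0.352. Both calls held in each alternative run, including the spike-adjusted fit (-1.25 ± 0.28, adjusted p = 0.0304 and -1.36 ± 0.17, adjusted p = 0.000944). The other probe set of Slc4a4 fell in UB against WD (-1.16 ± 0.25, adjusted p = 0.00551) and gave -0.70 ± 0.25, adjusted p = 0.0907 in WD+IM against WD. Of 11 duct epithelial markers, 9 were called lower in WD+IM against WD, 81.8% against 8.24% of all genes. In UB against WD 4 were called lower and 1 higher, 36.4% and 9.09% against 19.6% and 13.4%. Their part in the Slc4a4 signal was not tested.

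The chloride-bicarbonate exchangers Slc4a2 and Slc4a3 were lowest in the UB. Slc4a3, known from brain and heart, had signals of 866, 783 and 830.3 in the UB, 2651, 3076 and 2646 in the WD and 2391, 2130 and 1780 in WD+IM. The UB arrays lay below all 6 others. It fell in the UB against the WD (-1.70 ± 0.18, 3.25-fold, adjusted p = 4.27e-05) and against WD+IM (-1.29 ± 0.18, 2.44-fold, adjusted p = 0.000213), and both calls held in each alternative, the spike-adjusted fit included (-1.36 ± 0.32, adjusted p = 0.0381 against the WD). Slc4a2, the widely expressed exchanger, had signals of 1795, 1965 and 1745 in the UB, 2713, 2914 and 3746 in the WD and 3367, 3548 and 3045 in WD+IM, again with the UB arrays lowest. Its differences were -0.74 ± 0.17, adjusted p = 0.00715 in UB against WD and -0.84 ± 0.17, adjusted p = 0.00296 in UB against WD+IM. The first was -0.56 ± 0.31, adjusted p = 0.369 in the spike-adjusted fit and had an adjusted p of 0.322 after median centring, the second -0.72 ± 0.24, adjusted p = 0.0874 and 0.102, and 0.0581 within the arrays of high spike ratio. Slc4a7, a sodium-bicarbonate cotransporter, was not called, with signals of 7489, 9728 and 7337 in the UB, 7457, 8692 and 6048 in the WD and 6817, 5967 and 6162 in WD+IM and a UB against WD difference of 0.15 ± 0.17, adjusted p = 0.525. The adjusted p was 0.0435 after median centring, which also took UB against WD+IM past the threshold (0.0215). Slc4a11, a membrane protein of the cornea and other epithelia, was lower in WD+IM than in the WD (902, 843 and 579 against 1329, 1442 and 1743, -0.93 ± 0.26, adjusted p = 0.0375). The adjusted p of this call was 0.0617 to 0.117 when any 1 of WD replicates 1, 2 or 3 and WD+IM replicates 2 or 3 was left out, 0.0623 without UB replicate 1, 0.0606 in a fit of the 2 groups alone and 0.123 in the spike-adjusted fit. Slc4a11 passed in UB against WD+IM after quantile normalization (0.71, adjusted p = 0.0449) and median centring (0.84, adjusted p = 0.0186).

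Slc4a1, band 3 of the red cell membrane and the chloride-bicarbonate exchanger of acid-secreting collecting duct cells, had signals of 133, 159.9 and 107 in the UB, 2009, 594 and 913 in the WD and 1786, 1123 and 816 in WD+IM. The UB arrays were far below the rest, and WD and WD+IM overlapped. The differences were -2.60 ± 0.43, 6.06-fold, adjusted p = 0.00101 for UB against WD, -2.78 ± 0.43, 6.88-fold, adjusted p = 0.000416 for UB against WD+IM and 0.18 ± 0.43, adjusted p = 0.825 for WD+IM against WD. A second probe set gave 201, 109.6 and 129 in the UB, 532, 296 and 716 in the WD and 603, 538 and 279.9 in WD+IM, with -1.50 ± 0.45, adjusted p = 0.0275 and -1.40 ± 0.45, adjusted p = 0.04 for UB against WD and against WD+IM. Red cell genes moved the same way. Of 10 tested, 0 rose and 7 fell in UB against WD, 0% and 70% against 13.4% and 19.6% of all genes. In UB against WD+IM 0 rose and 7 fell, 0% and 70% against 13.6% and 16.6%. By limma 0 were called in WD+IM against WD (0 at an unadjusted p under 0.05), where 6.47% of all genes rose and 8.24% fell. The medians were -2.63, -3.12 and -0.06 in that order of comparisons. The embryonic globin Hbz gave -4.77 ± 0.37 and the haem synthesis enzyme Alas2 -2.43 ± 0.39 in UB against WD. The part of red cell RNA in the Slc4a1 signal was not tested. In the spike-adjusted fit UB against WD became -1.84 ± 0.76, adjusted p = 0.227, and UB against WD+IM -2.27 ± 0.59, adjusted p = 0.0292.

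**Figure D4:**
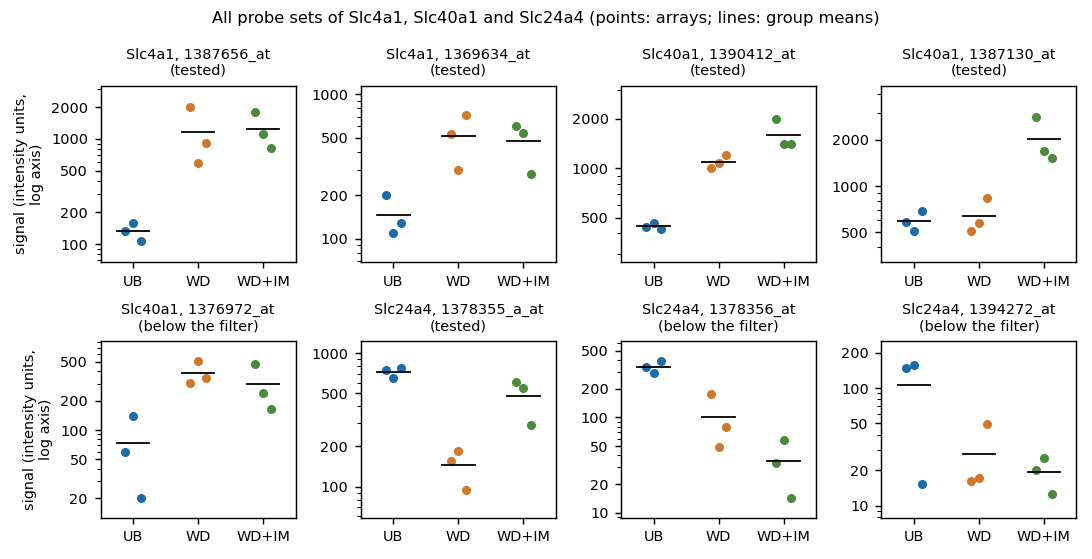
Signal in intensity units (vertical log axis) of every probe set of Slc4a1, Slc40a1 and Slc24a4 on each array (points) by tissue, with group means as lines and the filter status in brackets. Both Slc4a1 probe sets are lowest on the UB arrays, while the probe sets of Slc40a1 differ in where the WD lies and those of Slc24a4 in where WD+IM lies.

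Of the Slc26 anion carriers 3 of 8 genes were tested. Slc26a1, a sulfate and oxalate carrier, had signals of 299.6, 96.8 and 214 in the UB, 431, 619.8 and 677 in the WD and 443, 153 and 384 in WD+IM, the UB arrays being below the WD arrays (-1.39 ± 0.48, adjusted p = 0.0487). This call was made in 6 of the 20 alternatives that tested it, with an adjusted p of 0.0544 without WD+IM replicate 3, 0.0582 to 0.158 when any 1 of UB replicates 1, 2 or 3 and WD replicates 1, 2 or 3 was left out, 0.308 after quantile normalization, 0.147 after median centring and 0.302 in the spike-adjusted fit. Slc26a8, known from the testis, had signals of 486, 414 and 581 in the UB, 348, 578 and 434 in the WD and 191, 140.3 and 225 in WD+IM, lowest in WD+IM, and was called in UB against WD+IM (1.23 ± 0.38, adjusted p = 0.0308), where the adjusted p was 0.0502 to 0.123 when any 1 of UB replicates 1, 2 or 3 and WD+IM replicates 1 or 2 was left out, 0.16 within the arrays of high spike ratio and 0.318 in the spike-adjusted fit. Slc26a8 passed in WD+IM against WD with no variance trend (0.0154) and in the fit of 1 value per gene (0.0496). Slc26a6, an apical anion exchanger, was not called, with a UB against WD difference of -0.31 ± 0.26, adjusted p = 0.369, nor was the adaptor Slc4a1ap (-0.33 ± 0.15, adjusted p = 0.118). Carbonic anhydrases supply bicarbonate to these carriers. Of 12 matched, 4 were tested. In UB against WD 0 rose and 2 fell (Car2 and Car11), 0% and 50% against 13.4% and 19.6% of all genes. In WD+IM against WD 1 rose (Car8) and 1 fell (Car2), 25% each against 6.47% and 8.24%. In UB against WD+IM 0 rose and 2 fell (Car8 and Car11), 0% and 50% against 13.6% and 16.6%. The medians of the 4 were -0.87, 0.19 and -0.94. Car2, the cytosolic enzyme of acid-base transporting cells and of red cells, had signals of 625, 1170 and 826 in the UB, 2920, 2825 and 1828 in the WD and 1373, 1366 and 1273 in WD+IM, with UB against WD at -1.50 ± 0.26, adjusted p = 0.00128. Car11 and Car8 are related proteins without the enzyme's activity. Car11 was lowest in the UB (UB against WD -1.37 ± 0.14, adjusted p = 2.32e-05) and Car8 highest in WD+IM (WD+IM against WD 2.04 ± 0.24, adjusted p = 0.000241). The proton pump (V-ATPase) list had 18 genes tested. In UB against WD 0 rose and 5 fell, 0% and 27.8% against 13.4% and 19.6% of all genes. In WD+IM against WD 0 rose and 3 fell, 0% and 16.7% against 6.47% and 8.24%. In UB against WD+IM 3 rose and 3 fell, 16.7% each against 13.6% and 16.6%. The medians were -0.19, -0.01 and -0.26. Atp6v0d1 fell by 0.63 on the log2 scale (-0.63 ± 0.13, adjusted p = 0.00394) and Atp6v0a1 by 1.10 (-1.10 ± 0.20, adjusted p = 0.00195) in UB against WD, both parts of the pump's membrane sector, and the accessory protein Atp6ap2 was lower in WD+IM than in the WD (-0.86 ± 0.14, adjusted p = 0.002).

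Na/H exchangers trade sodium for protons, and 4 of 6 were tested. Against the WD, 0 rose and 2 fell in the UB (Slc9a9 and Slc9a5, median -0.99), 0% and 50% against 13.4% and 19.6% of all genes. In WD+IM against WD none was called by limma (1 of the 4 at an unadjusted p under 0.05). In UB against WD+IM 0 rose and 1 fell (Slc9a9), 0% and 25% against 13.6% and 16.6%. Slc9a9, an exchanger of endosomes, had signals of 10.4, 26 and 92.3 in the UB, 341, 539.6 and 389.8 in the WD and 513, 479.6 and 578 in WD+IM. The UB values reach into the range where signal and background cannot be told apart, and all WD and WD+IM arrays lay far above them. Its differences were -2.49 ± 0.49, adjusted p = 0.00294 for UB against WD and -2.78 ± 0.49, adjusted p = 0.00105 for UB against WD+IM, and their size depends on the added constant of 46. In the spike-adjusted fit they were -2.69 ± 0.89, adjusted p = 0.134 and -2.92 ± 0.70, adjusted p = 0.0182. Within the arrays of high spike ratio the second had an adjusted p of 0.0553. Slc9a5, known from brain, had signals of 765, 800.5 and 581 in the UB, 1784, 1464 and 1460 in the WD and 1323, 616 and 823 in WD+IM, the WD arrays being above the UB arrays (-1.09 ± 0.28, adjusted p = 0.0132). The adjusted p was 0.0514 without UB replicate 3, 0.062 after quantile normalization, 0.0907 after median centring, 0.109 with the beta-actin covariate and 0.368 in the spike-adjusted fit. Slc9a5 reached 0.0239 in WD+IM against WD without WD+IM replicate 1. Slc9a8, an exchanger of the Golgi, gave -0.75 ± 0.29, adjusted p = 0.0711 (0.0266 without WD replicate 1, 0.0457 in the fit of 1 value per gene), and Slc9a2, of apical membranes, -0.89 ± 0.53, adjusted p = 0.222, in UB against WD.

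Of the Slc12 family, which carry chloride with a cation, 5 of 8 genes were tested. The UB had 0 higher and 2 lower than the WD (Slc12a4 and Slc12a5), 0% and 40% against 13.4% and 19.6% of all genes. In WD+IM against WD none was called by limma (3 of the 5 at an unadjusted p under 0.05). In UB against WD+IM 0 rose and 1 fell (Slc12a4), 0% and 20% against 13.6% and 16.6%. Slc12a2, the widely expressed sodium-potassium-chloride cotransporter that loads cells with chloride, had signals of 9436, 9135 and 6243 in the UB, 7189, 10935 and 6252 in the WD and 10497, 11537 and 14725 in WD+IM. The WD+IM values overlapped those of the WD, and no comparison was called (0.62 ± 0.23, adjusted p = 0.0948 for WD+IM against WD and -0.57 ± 0.23, adjusted p = 0.0839 for UB against WD+IM). Without WD replicate 2 the adjusted p was 0.03 in WD+IM against WD and 0.0436 in UB against WD+IM, and after quantile normalization 0.0469 in the latter. Slc12a4, a potassium-chloride cotransporter of many tissues, had signals of 262, 420.4 and 616 in the UB, 1476, 638 and 1251 in the WD and 1427, 963 and 1217 in WD+IM. The UB arrays lay below all others (-1.28 ± 0.36, adjusted p = 0.0203 against the WD, -1.43 ± 0.36, adjusted p = 0.0113 against WD+IM). The first call had an adjusted p of 0.058 to 0.0908 when any 1 of UB replicate 1 and WD replicates 1 or 3 was left out, 0.108 after quantile normalization, 0.0647 after median centring and 0.334 in the spike-adjusted fit, and the second of 0.0575 without UB replicate 1, 0.099 within the arrays of high spike ratio and 0.114 in the spike-adjusted fit. Slc12a5, the potassium-chloride cotransporter of neurons, gave 435, 452 and 386 in the UB and 579, 1560 and 812 in the WD (-1.02 ± 0.35, adjusted p = 0.0472), with an adjusted p of 0.0658 to 0.175 when any 1 of UB replicates 1, 2 or 3 and WD replicates 2 or 3 was left out and 0.674 in the spike-adjusted fit. It was called in 5 of the 20 alternatives that tested it, and leaving out WD+IM replicate 2 or 3 ended the call too (0.0579 and 0.0516). Without WD replicate 2 it was called lower in UB against WD+IM (0.0429). Slc12a7, another potassium-chloride cotransporter, gave 0.34 ± 0.13, adjusted p = 0.0696 in UB against WD, and 0.80, adjusted p = 0.00825 after median centring. The related Slc12a9 gave -0.53 ± 0.20, adjusted p = 0.0634 there (0.0428 without WD replicate 1). Its WD+IM against WD difference was -0.65, not called, with an adjusted p of 0.0268 to 0.0486 under the stricter filter, with no variance trend, in the fit of 1 value per gene and without WD replicate 1. The WNK kinases and their partners set the activity of these cotransporters. Of 8 such genes, 0 rose and 3 fell (Stk39, Klhl3 and Nedd4l) in UB against WD, 0% and 37.5% against 13.4% and 19.6% of all genes. In WD+IM against WD 1 rose (Sgk1) and 3 fell (Stk39, Oxsr1 and Nedd4l), 12.5% and 37.5% against 6.47% and 8.24%. In UB against WD+IM 1 rose (Oxsr1) and 1 fell (Sgk1), 12.5% each against 13.6% and 16.6%. The medians were -0.20, -0.56 and 0.055. Sgk1, an aldosterone-induced kinase, had signals of 759, 595 and 833 in the UB, 817, 494 and 828 in the WD and 4318, 2271 and 3285 in WD+IM, with all high values in WD+IM (2.12 ± 0.28, adjusted p = 0.000499 against the WD). Stk39, the kinase that phosphorylates Slc12 proteins, and the ubiquitin ligase Nedd4l were highest in the WD (UB against WD -0.59 ± 0.15, adjusted p = 0.0137 and -0.90 ± 0.21, adjusted p = 0.00759).

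Sodium-calcium exchangers included the transporter with the largest rise in UB against WD. Slc24a4, a potassium-dependent exchanger, had signals of 745, 651 and 769 in the UB, 155, 184 and 93.6 in the WD and 606, 546 and 292 in WD+IM. The WD arrays were the lowest and overlapped neither tissue. Slc24a4 rose in the UB over the WD (2.04 ± 0.39, 4.11-fold, adjusted p = 0.00253) and in WD+IM over the WD (1.45 ± 0.39, 2.72-fold, adjusted p = 0.0299), and UB against WD+IM gave 0.60 ± 0.39, adjusted p = 0.306. The UB call held in each of the 20 alternatives that tested it, with 2.92 ± 0.64, adjusted p = 0.0302 in the spike-adjusted fit. Under the stricter filter, at the 60th percentile, Slc24a4 was not tested. The WD+IM call was made in 11 of the 21 alternatives that tested it. It had an adjusted p of 0.0522 to 0.096 when any 1 of UB replicates 1, 2 or 3, WD replicates 1 or 3 and WD+IM replicates 1 or 2 was left out, 0.132 in a fit of these 2 groups alone, 0.14 within the arrays of low spike ratio and 0.215 with the beta-actin covariate. The other Slc24a4 probe sets were below the filter. One had 335, 291 and 395 in the UB, 174, 49.5 and 79.5 in the WD and 33.4, 57.9 and 14.2 in WD+IM, high in the UB too but with WD+IM below or near the WD, so the probe sets differ on WD+IM. The last had 149, 157 and 15.2 in the UB, 16.2, 17.1 and 49.4 in the WD and 19.9, 25.2 and 12.6 in WD+IM. There all tissues overlapped and WD+IM was not above the WD. The related Slc24a3, known from brain and smooth muscle, ran the other way, with signals of 197, 297 and 281 in the UB, 769, 657 and 766 in the WD and 1256, 1342 and 1427 in WD+IM. No 2 tissues overlapped, and the UB was lower than the WD (-1.36 ± 0.27, adjusted p = 0.00281) and WD+IM (-2.20 ± 0.27, adjusted p = 5.63e-05), while WD+IM against WD gave 0.84 ± 0.27, adjusted p = 0.0586. That difference passed after quantile normalization (0.0287), with the larger added constant (0.0442), with no variance trend (0.0151) and in the fit of 1 value per gene (0.0327). The UB against WD call had an adjusted p of 0.0608 after quantile normalization and was -1.50 ± 0.48, adjusted p = 0.128 in the spike-adjusted fit. Of 12 mesenchymal markers, 10 were called lower in UB against WD and 8 higher in WD+IM against WD. These are 83.3% and 66.7%, against 19.6% and 6.47% of all genes. In UB against WD 1 of the 12 was higher in the UB without overlap (0.70, not called). Smooth muscle markers gave 4 of 5 lower and 3 of 5 higher, 80% and 60% against the same shares of all genes. Their part in the Slc24a3 signal was not tested.

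Slc8a1, the sodium-calcium exchanger of heart and distal tubule, had signals of 5469, 6039 and 5237 in the UB, 6192, 6370 and 5618 in the WD and 2446, 3242 and 3845 in WD+IM. UB and WD overlapped, and WD+IM lay below both. It fell in WD+IM against the WD (-0.94 ± 0.17, adjusted p = 0.00323) and was higher in the UB than in WD+IM (0.82 ± 0.17, adjusted p = 0.00346), with UB against WD at -0.12 ± 0.17, adjusted p = 0.629. The first call had an adjusted p of 0.156 with the beta-actin covariate, and the second was 0.53 ± 0.22, adjusted p = 0.164 in the spike-adjusted fit. Slc8a2, a brain isoform, and Slc24a2, known from cone cells, were not called, with UB against WD at -0.46 ± 0.51, adjusted p = 0.522 and -0.62 ± 0.54, adjusted p = 0.401. Without WD+IM replicate 3, Slc8a2 was called lower in UB against WD+IM (-1.54, adjusted p = 0.0366). Calcium pumps of the plasma membrane and stores gave no calls: of 9 matched genes 3 were tested by limma (Atp2a2, Atp2c1 and Atp2b1), with medians of -0.20, -0.10 and -0.07 in the 3 comparisons, a smallest adjusted p of 0.417 and 0 of the 3 at an unadjusted p under 0.05, which does not show that they were equal.

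Of the phosphate carriers, the Slc20 genes of all cells were tested and the Slc34 genes of the kidney, gut and lung were below the filter. Slc20a1 had signals of 10508, 11008 and 9650 in the UB, 7517, 7916 and 7335 in the WD and 10604, 9929 and 8178 in WD+IM, the UB arrays being above the WD arrays and overlapping WD+IM. It rose in UB against WD (0.45 ± 0.13, 1.37-fold, adjusted p = 0.0251), with an adjusted p of 0.0582 to 0.086 when any 1 of UB replicates 1 or 2 and WD replicates 1 or 3 was left out, 0.0866 after quantile normalization, 0.0542 with no variance trend, 0.117 with the beta-actin covariate and 0.0803 in the spike-adjusted fit. Slc20a2 gave 2525, 2623 and 2458 in the UB, 2596, 2022 and 2018 in the WD and 2513, 2667 and 2587 in WD+IM, with UB against WD at 0.20 ± 0.16, adjusted p = 0.363. The adjusted p was 0.0297 after median centring. In the other 2 comparisons neither Slc20 gene was called by limma (1 of 2 at an unadjusted p under 0.05 in WD+IM against WD, 0 in UB against WD+IM). Slc34a2 had signals of 20.3, 9.52 and 17.2 in the UB, 143, 166 and 33.6 in the WD and 330.2, 17.2 and 23.4 in WD+IM. Among 12 genes of phosphate handling and its control, 7 were tested. In UB against WD 0 rose and 4 fell (Enpp1, Fgfr1, Pth1r and Stc1), 0% and 57.1% against 13.4% and 19.6% of all genes. In WD+IM against WD 2 rose (Fgfr1 and Pth1r) and 2 fell (Stc1 and Galnt3), 28.6% each against 6.47% and 8.24%. In UB against WD+IM 0 rose and 3 fell (Fgfr1, Pth1r and Stc1), 0% and 42.9% against 13.6% and 16.6%. The medians of the 7 were -0.86, -0.36 and -0.82. Pth1r, the parathyroid hormone receptor, had signals of 289, 272 and 343 in the UB, 2545, 2458 and 2354 in the WD and 4084, 4797 and 4438 in WD+IM, with no overlap between tissues (UB against WD -2.85 ± 0.18, adjusted p = 5.94e-07, WD+IM against WD 0.84 ± 0.18, adjusted p = 0.00958). Stc1, a secreted hormone that affects phosphate and calcium transport, was highest in the WD, with 1788, 1265 and 1739 in the UB, 5016, 6357 and 5027 in the WD and 2695, 3104 and 2702 in WD+IM (UB against WD -1.75 ± 0.18, adjusted p = 3.08e-05). Fgfr1, a receptor of the phosphate hormone FGF23 among others, gave -0.50 ± 0.13, adjusted p = 0.0142 in UB against WD and 0.51 ± 0.13, adjusted p = 0.024 in WD+IM against WD.

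Among zinc genes the storage protein Mt2A had a larger UB against WD difference than any zinc carrier tested. Mt2A, a metallothionein that binds zinc and copper, had signals of 30485, 30767 and 27395 in the UB, 3401, 6013 and 6124 in the WD and 3500, 3002 and 2698 in WD+IM. All UB arrays lay above all others, and the differences were 2.55 ± 0.21, 5.85-fold, adjusted p = 4.15e-06 for UB against WD, 3.25 ± 0.21, 9.55-fold, adjusted p = 2.65e-07 for UB against WD+IM and -0.71 ± 0.21, adjusted p = 0.0432 for WD+IM against WD, where the groups overlapped. Metallothionein genes are known to be switched on by the zinc-sensing factor MTF1 through metal response elements, and so is the zinc exporter gene Slc30a1, so their upstream sequences are set side by side. Shown are the 250 bases before the annotated start in GRCr8 (RefSeq) of Mt2A (chr19:10838709-10838958, minus strand), Slc30a1 (chr13:106021769-106022018, plus strand), Slc39a7 (chr20:4824809-4825058, plus strand), which has the most matches among the zinc carriers, and Slc39a8 (chr2:226929941-226930190, plus strand), the one zinc carrier that rose in WD+IM. Capitals mark matches to the element's core, TGCACNC or TGCGCNC on either strand; in Slc39a7 the first 2 matches overlap.
Mt2A: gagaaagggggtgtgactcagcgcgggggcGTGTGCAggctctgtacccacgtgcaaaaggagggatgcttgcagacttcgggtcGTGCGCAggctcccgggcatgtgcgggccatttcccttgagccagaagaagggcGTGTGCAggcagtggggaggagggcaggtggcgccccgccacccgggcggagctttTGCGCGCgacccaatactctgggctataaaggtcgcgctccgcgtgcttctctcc
Slc30a1: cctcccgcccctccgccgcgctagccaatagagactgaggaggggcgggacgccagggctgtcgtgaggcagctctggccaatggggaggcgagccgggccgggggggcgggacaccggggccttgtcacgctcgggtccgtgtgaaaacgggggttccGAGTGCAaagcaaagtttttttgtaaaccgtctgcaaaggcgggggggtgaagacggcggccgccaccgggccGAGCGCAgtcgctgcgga
Slc39a7: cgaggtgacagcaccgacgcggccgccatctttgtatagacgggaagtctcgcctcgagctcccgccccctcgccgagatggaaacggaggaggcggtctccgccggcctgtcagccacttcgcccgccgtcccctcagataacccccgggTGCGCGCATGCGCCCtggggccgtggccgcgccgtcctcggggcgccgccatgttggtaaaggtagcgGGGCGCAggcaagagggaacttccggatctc
Slc39a8: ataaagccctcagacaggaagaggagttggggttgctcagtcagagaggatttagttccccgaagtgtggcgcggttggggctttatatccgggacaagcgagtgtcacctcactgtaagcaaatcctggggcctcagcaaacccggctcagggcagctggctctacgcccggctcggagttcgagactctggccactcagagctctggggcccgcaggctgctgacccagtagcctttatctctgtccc

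Mt2A held 4 matches, Slc30a1 held 2, Slc39a7 held 4 and Slc39a8 held 0. Of the 73 transporter genes 61 had an upstream sequence, and 25 of these, 41%, held a match, as did 8 of 17 zinc carriers (47.1%), 32.1% of 8980 tested genes with a sequence and 21.2% of all 27457 such windows. A match is a stretch of letters and not a site shown to be bound. Slc30a1, with 2 matches, had signals of 567, 385 and 938 in the UB, 359.7, 291 and 840.3 in the WD and 472, 535 and 429 in WD+IM. The tissues overlapped, and UB against WD gave 0.37 ± 0.42, adjusted p = 0.538. Mtf1 was not called (-0.17 ± 0.15, adjusted p = 0.408 in UB against WD). Whether zinc or MTF1 had a part in the Mt2A difference was not tested. For Mt2A as for the other genes, tissue and trypsin digestion cannot be told apart in the UB. Mt1 was below the filter, and Tmem163, a zinc-binding membrane protein, was lowest in the UB (-1.71 ± 0.50, adjusted p = 0.0235 against the WD and -2.74 ± 0.50, adjusted p = 0.00148 against WD+IM). Of these zinc-response genes 3 were tested, with medians of -0.17, -0.29 and 0.12 in UB against WD, WD+IM against WD and UB against WD+IM.

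Among the zinc exporters, Slc30a3 and Slc30a4 fell in UB against WD. Of 8 tested Slc30 genes, 0 rose and these 2 fell in UB against WD (0% and 25% against 13.4% and 19.6% of all genes, median over the 8 -0.005). None was called by limma in WD+IM against WD (median -0.12, 0 of the 8 at an unadjusted p under 0.05) or in UB against WD+IM (median -0.10, 1 of the 8). Slc30a4, a vesicle exporter, had signals of 1873, 1480 and 1532 in the UB, 2612, 2765 and 2121 in the WD and 1623, 1952 and 2335 in WD+IM, the UB arrays being below the WD arrays (-0.60 ± 0.20, adjusted p = 0.0377). Its adjusted p was 0.055 to 0.109 when any 1 of UB replicates 1, 2 or 3 and WD replicates 1 or 2 was left out, 0.151 after quantile normalization, 0.704 after median centring, 0.319 with the beta-actin covariate and 0.153 in the spike-adjusted fit. Slc30a3, the exporter of synaptic vesicles, gave 169, 192 and 353 in the UB against 592, 634 and 735 in the WD (-1.35 ± 0.42, adjusted p = 0.0316), but -0.10 ± 0.64, adjusted p = 0.954 in the spike-adjusted fit. Its adjusted p was 0.061 to 0.113 when any 1 of UB replicates 1 or 2 and WD replicates 1, 2 or 3 was left out, 0.17 after quantile normalization and 0.0884 after median centring. Slc30a3 passed in UB against WD+IM without WD+IM replicate 3 (-1.31, adjusted p = 0.0297). The Golgi exporters Slc30a5, Slc30a6 and Slc30a7 gave 0.14 ± 0.16, -0.39 ± 0.16 and -0.10 ± 0.23 in UB against WD, none of them called. Slc30a5 passed in that comparison after median centring (0.60, adjusted p = 0.0476). Its UB against WD+IM difference of 0.44 passed after median centring (0.0127), in a fit of these 2 groups alone (0.0485), in the fit of 1 value per gene (0.0446) and without WD replicate 2 (0.0393). Slc30a6 passed in UB against WD without WD replicate 2 (0.0492). Slc30a9 gave 0.09 ± 0.15 and, on a second tested probe set, 0.84 with an adjusted p of 0.0757 in UB against WD. Slc30a2, known from secretory tissue, gave 0.09 ± 0.47 on its representative probe set. A second tested probe set of Slc30a2 had 373, 329 and 269 in the UB, 516, 724 and 595 in the WD and 197, 298 and 282 in WD+IM. There the WD arrays lay above all others, with -0.83 ± 0.35, adjusted p = 0.0947 for UB against WD and -1.11 ± 0.35, adjusted p = 0.0595 for WD+IM against WD, so the probe sets of Slc30a2 differ on the WD.

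Among the zinc importers, Slc39a8 was highest and Slc39a10 and Slc39a11 were lowest in WD+IM, and 7 of the 10 tested Slc39 genes were not called there. Of the 10, 1 rose (Slc39a8) and 2 fell (Slc39a10 and Slc39a11) in WD+IM against WD (10% and 20% against 6.47% and 8.24% of all genes). With the same WD+IM arrays, 2 rose (Slc39a10 and Slc39a11) and 1 fell (Slc39a8) in UB against WD+IM, 20% and 10% against 13.6% and 16.6%. The medians were -0.18 in UB against WD, 0.03 in WD+IM against WD and -0.10 in UB against WD+IM. By limma 0 of the 10 passed in UB against WD, 1 had an unadjusted p under 0.05, and the differences ran from -0.53 to 0.35. Slc39a8, an importer of zinc, manganese and iron, had signals of 898, 1185 and 1085 in the UB, 1124, 1059 and 722 in the WD and 2667, 1870 and 2230 in WD+IM. All WD+IM arrays lay above all others, and UB and WD overlapped. It rose in WD+IM against the WD (1.19 ± 0.23, 2.28-fold, adjusted p = 0.00547), in each alternative run, and UB against WD+IM gave -1.06 ± 0.23, adjusted p = 0.00536 (-1.05 ± 0.34, adjusted p = 0.077 in the spike-adjusted fit). Endothelial markers rose in the same comparison, beside the mesenchymal markers given above. Of 13 endothelial markers, 11 were called higher in WD+IM against WD (median 2.50), 84.6% against 6.47% of all genes. Their part in the Slc39a8 signal was not tested. Slc39a10, a plasma membrane importer, had signals of 21689, 21816 and 17516 in the UB, 17716, 24735 and 16999 in the WD and 12409, 13677 and 13850 in WD+IM, with WD+IM lowest (-0.55 ± 0.16, adjusted p = 0.0377 against the WD, 0.60 ± 0.16, adjusted p = 0.0133 for UB against WD+IM). The first call had an adjusted p of 0.0503 to 0.113 when any 1 of WD replicates 1 or 2 and WD+IM replicates 1, 2 or 3 was left out, 0.0599 without UB replicate 1, 0.0517 without UB replicate 2, 0.248 after median centring, 0.4 with the beta-actin covariate and 0.0693 in the spike-adjusted fit. It was made in 9 of 22 alternatives. The second had 0.0635 without UB replicate 1, 0.0561 without UB replicate 2, 0.0779 within the arrays of high spike ratio and 0.178 in the spike-adjusted fit. Slc39a11 had signals of 2685, 2475 and 2809 in the UB, 3016, 3463 and 3192 in the WD and 1917, 2029 and 1775 in WD+IM, again with WD+IM lowest (-0.74 ± 0.15, adjusted p = 0.00759 against the WD). That call had an adjusted p of 0.0611 after median centring, 0.091 within the arrays of low spike ratio and 0.0668 with the beta-actin covariate.

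In UB against WD+IM Slc39a11 gave 0.47 ± 0.15, adjusted p = 0.0425, lost without any 1 of the 6 arrays compared (0.0649 to 0.135 when any 1 of UB replicates 1, 2 or 3 and WD+IM replicates 1, 2 or 3 was left out), at 0.0515 without WD replicate 1, 0.0993 within the arrays of high spike ratio and 0.138 in the spike-adjusted fit. Slc39a14, an importer of zinc and iron, stayed uncalled with signals of 1072, 1319 and 1116 in the UB, 1318, 1075 and 1439 in the WD and 1170, 1302 and 961 in WD+IM and a UB against WD difference of -0.12 ± 0.22, adjusted p = 0.704. Slc39a6, Slc39a7 and Slc39a1 gave 0.35 ± 0.14, 0.10 ± 0.16 and -0.23 ± 0.21 in UB against WD, none of them called, Slc39a7 being the importer that releases zinc from the endoplasmic reticulum. The remaining importers Slc39a3, Slc39a4 and Slc39a13 gave -0.43 ± 0.29, -0.53 ± 0.62 and -0.37 ± 0.19, likewise not called on their representative probe sets. Slc39a13 passed without WD replicate 2 (-0.55, adjusted p = 0.0423). A second tested probe set of Slc39a3 had 459.6, 821 and 577 in the UB, 884, 969.6 and 1268 in the WD and 1113, 1182 and 1059 in WD+IM, with the UB arrays below all others. It was called lower in UB against WD+IM (-0.84 ± 0.26, adjusted p = 0.0338), where the representative gave -0.09, and UB against WD was -0.73 ± 0.26, adjusted p = 0.0546. For Slc39a6 the adjusted p in UB against WD was 0.00688 after median centring. Its 3 tested probe sets ran from -0.39 to 0.35 in that comparison as deposited, none of them called, so they differ in sign. Of 7 copper carriers and chaperones tested, 1 rose (Atox1) and 2 fell (Slc31a2 and Atp7a) in UB against WD. These are 14.3% and 28.6%, against 13.4% and 19.6% of all genes. Only Slc31a2 fell and 0 rose in WD+IM against WD, 14.3% and 0% against 8.24% and 6.47%. In UB against WD+IM 1 rose (Atox1) and 1 fell (Atp7a), 14.3% each against 13.6% and 16.6%. The medians were -0.09, -0.08 and -0.33. Slc31a2 was highest in the WD, with 1799, 1100 and 1702 in the UB, 4224, 5443 and 4100 in the WD and 1559, 1818 and 2391 in WD+IM (UB against WD -1.57 ± 0.23, adjusted p = 0.000428), and the copper chaperone Atox1 rose in UB against WD (0.48 ± 0.15, adjusted p = 0.0329).

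Among iron and magnesium carriers all 5 genes were tested, and 0 rose and 2 fell (Slc40a1 and Slc41a3) both in UB against WD and in UB against WD+IM, with none called by limma in WD+IM against WD (1 of the 5 at an unadjusted p under 0.05). The medians of the 5 were -0.89, -0.96 and 0.19 in that order of comparisons. Falls made up 40% of the 5 in UB against WD, where 13.4% of all genes rose and 19.6% fell. They made up 40% in UB against WD+IM too, where 13.6% rose and 16.6% fell. Slc40a1 (ferroportin) had signals of 439, 462 and 427 in the UB, 997, 1081 and 1201 in the WD and 1987, 1402 and 1394 in WD+IM on its representative probe set, with no overlap between tissues and the UB lowest. The differences were -1.22 ± 0.23, 2.33-fold, adjusted p = 0.0025 for UB against WD, -1.73 ± 0.23, 3.31-fold, adjusted p = 0.000135 for UB against WD+IM and 0.51 ± 0.23, adjusted p = 0.174 for WD+IM against WD. A second tested probe set gave 584, 513 and 689.6 in the UB, 509.8, 576 and 839 in the WD and 2826, 1688 and 1536 in WD+IM. There UB and WD overlapped (-0.08 ± 0.29, adjusted p = 0.857), WD+IM was called higher than the WD (1.56 ± 0.29, adjusted p = 0.00382), and UB against WD+IM was -1.64 ± 0.29, adjusted p = 0.00118. With the mean of both, WD+IM against WD was called (1.04, adjusted p = 0.00807). Another probe set, below the filter, had 59.9, 139 and 20.1 in the UB, 305, 513 and 339.9 in the WD and 479, 242 and 164 in WD+IM. The lower level in the UB than in WD+IM was called on both tested probe sets and held in the spike-adjusted fit (-1.56 ± 0.33, adjusted p = 0.00891), while the place of the WD depended on the probe set and UB against WD was -0.96 ± 0.42, adjusted p = 0.251 in that fit. Ferroportin is known to be high in macrophages and in red cell precursors. Of 10 macrophage markers, 0 rose and 5 fell in UB against WD, 0% and 50% against 13.4% and 19.6% of all genes. In UB against WD+IM 0 rose and 8 fell, 0% and 80% against 13.6% and 16.6%. By limma 0 were called in WD+IM against WD (4 at an unadjusted p under 0.05), where 6.47% of all genes rose and 8.24% fell. The medians of these markers were -1.32, -2.22 and 0.77 in that order of comparisons. Their part in the Slc40a1 signal was not tested. Slc11a2, the importer of ferrous iron, was not called, with signals of 1688, 1800 and 1623 in the UB, 1457, 2631 and 1616 in the WD and 2368, 1644 and 1819 in WD+IM and UB against WD at -0.11 ± 0.24, adjusted p = 0.757.

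Of 13 other iron genes tested, 1 rose (Ireb2) and 3 fell (Heph, Cp and Steap2) in UB against WD, shares of 7.69% and 23.1% against 13.4% and 19.6% over all genes. In WD+IM against WD 1 rose (Ireb2) and 0 fell, 7.69% and 0% against 6.47% and 8.24%. In UB against WD+IM 1 rose (Tfrc) and 2 fell (Heph and Cp), 7.69% and 15.4% against 13.6% and 16.6%. The medians were -0.36, -0.02 and -0.27. Heph and Cp code for the ferroxidases hephaestin and ceruloplasmin, which load exported iron onto transferrin. Cp had signals of 30.9, 206 and 55.2 in the UB, 709, 535 and 909.9 in the WD and 985, 1172 and 859 in WD+IM, lowest in the UB (-2.58 ± 0.45, adjusted p = 0.00142 against the WD). Heph had 8809, 7827 and 7806 in the UB, 12189, 12683 and 10005 in the WD and 14137, 15879 and 16471 in WD+IM, in the order UB, WD, WD+IM with no overlap (UB against WD -0.51 ± 0.13, adjusted p = 0.0145). Tfrc, the transferrin receptor, was higher in the UB than in WD+IM (0.50 ± 0.15, adjusted p = 0.0295), with UB against WD at 0.32 ± 0.15, adjusted p = 0.133. For magnesium, Slc41a3 had signals of 795, 897 and 965 in the UB, 1664, 2248 and 1254 in the WD and 2207, 2354 and 2026 in WD+IM, with the UB arrays below all others (-0.89 ± 0.23, adjusted p = 0.012 against the WD, -1.27 ± 0.23, adjusted p = 0.0012 against WD+IM). The first call had an adjusted p of 0.0533 without UB replicate 1, 0.0881 after quantile normalization, 0.204 after median centring, 0.107 with the beta-actin covariate and 0.392 in the spike-adjusted fit, in which the second was -1.16 ± 0.33, adjusted p = 0.042. Slc41a1, a sodium-magnesium exchanger, gave 1538, 1415 and 1122 in the UB, 1614, 1592 and 2000 in the WD and 1969, 2219 and 1773 in WD+IM and was not called (-0.35 ± 0.20, adjusted p = 0.202 in UB against WD, -0.54 ± 0.20, adjusted p = 0.0651 in UB against WD+IM, 0.0369 in the fit of 1 value per gene), nor was Slc41a2 (-1.21 ± 0.60, adjusted p = 0.146 in UB against WD). Of 7 further magnesium genes tested, 1 rose (Nipa2) and 1 fell (Cnnm3) in UB against WD, 14.3% each against 13.4% and 19.6% of all genes. None was called by limma in WD+IM against WD (4 of the 7 at an unadjusted p under 0.05). In UB against WD+IM 1 rose (Mrs2) and 0 fell, 14.3% and 0% against 13.6% and 16.6%. The medians were 0.13, -0.39 and 0.07. Cnnm3, of a family linked to magnesium balance, gave -0.59 ± 0.13, adjusted p = 0.00673, Nipa2 0.49 ± 0.16, adjusted p = 0.0423 in UB against WD, and the mitochondrial channel Mrs2 0.68 ± 0.17, adjusted p = 0.0107 in UB against WD+IM.

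**Figure D5:**
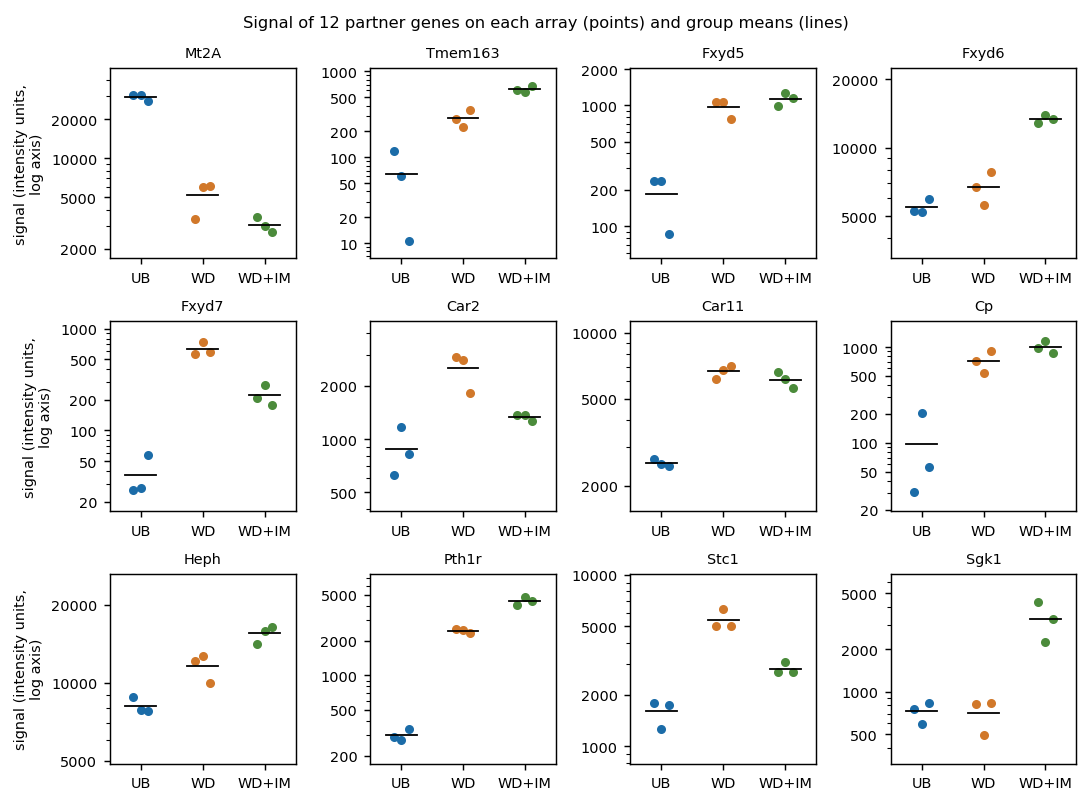
Signal in intensity units (vertical log axis) of 12 partner genes on each array (points) by tissue, with group means as lines. Mt2A is highest on the 3 UB arrays, Car2, Stc1 and Fxyd7 are highest on the WD arrays, and Fxyd6, Sgk1 and Pth1r on the WD+IM arrays.

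Of the 52 tested genes, 11 had more than 1 tested probe set. In UB against WD all tested probe sets were called for 2 of them, some for 1 and none for 8. In WD+IM against WD the counts were 1, 2 and 8, and in UB against WD+IM 3, 1 and 7. No gene had probe sets called in opposite directions.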

How the data were processed

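The deposited table holds 1 intensity per probe set and array, on a linear scale. Per the submitters' processing notes the authors used GCOS, Affymetrix's scanner software, and every array's trimmed mean signal was 2501 in the deposited values. Which signal algorithm it ran is not given in the sources used here. Gene symbols came from the platform annotation, which gives 1 symbol for 20826 probe sets, several for 436 and none for 9780, and 57 control probe sets were left out. The 100 transporter probe sets were matched by Entrez ID to current symbols, which were the same for all 73 genes.

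From these values log2(intensity + 46) was computed, a constant set at the overall 10th percentile of signal, so fold changes of weak genes are understated. Probe sets were tested if at least 3 of 9 arrays lay above their own 40th percentile. This left 20330 probe sets and 10800 genes. A model of the 3 tissues was fitted to all 9 arrays with limma 3.58.1 in R 4.3.3 (trended empirical Bayes, 6 residual and 6.08 prior degrees of freedom), p-values were adjusted by Benjamini-Hochberg over all probe sets within each comparison, and an adjusted p under 0.05 was called. Values after ± are standard errors. The procedure was tested on simulated data. With 3 arrays a tissue, their number limits the precision. No arrays held identical values.

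Array values were given for called genes without overlap between groups, up to the 6 that rose most and the 6 that fell most, and for a fixed list of genes, with other genes inside their family's counts and up to 3 of each partner list by smallest p. The members and lists were chosen with earlier results of these data known. Replicate numbers recur in the 3 tissues, but deviations of same-numbered arrays correlated at -0.348 to 0.277 over 9 pairs, 1 of them over 0.1, so the numbers were not taken as pairs. The alternatives were quantile normalization, median centring, constants of 16 and 128, no filter and a filter at the 60th percentile, no variance trend, fits of 2 groups, a replicate block, a spike-ratio term, fits within spike sets, a beta-actin covariate, the mean of a gene's probe sets (a fit of 1 value per gene), and leaving out each array. Upstream windows came from RefSeq on GRCr8, with the first listed start of each gene.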

Additional observations from a re-analysis of the deposited data

How the results depend on the processing

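No transporter call changed sign under any alternative run, but the counts moved. The 3 genes called higher in UB against WD became 9 after median centring (2 to 4 when each array was left out). The 14 called lower became 6 after quantile normalization, 6 after median centring, 7 under the stricter filter, 2 with the spike-ratio term and 8 with the beta-actin covariate (8 to 14 when each array was left out). In UB against WD+IM the 5 called higher became 9 after median centring, 3 without a filter, 3 with the replicate block, 1 with the spike-ratio term and 1 within the high-spike arrays (2 to 7), and the 9 called lower became 5 under the stricter filter (8 to 11). In WD+IM against WD the 3 called higher became 5 with the mean of a gene's probe sets (2 to 4), and the 6 called lower became 3 within the low-spike arrays and 3 with the beta-actin covariate (4 to 6). The stricter filter tests fewer genes. For the other settings the cause was not tested. With the replicate number as a block, which the data did not bear out as a pairing, the counts of higher and lower calls were 3 and 10 in UB against WD, 3 and 5 in WD+IM against WD and 3 and 9 in UB against WD+IM. With the spike-ratio term 4 of 17, 7 of 9 and 7 of 14 calls were kept in these comparisons. Calls kept under every alternative that tested them were Slc4a3, Slc4a4, Atp1b3 and Slc24a4 in UB against WD, Slc4a4, Atp1b1, Atp1b3 and Slc39a8 in WD+IM against WD, and Slc4a1, Slc4a3, Slc40a1, Slc41a3, Atp1b1 and Slc24a3 in UB against WD+IM. Of these, Slc24a4 in UB against WD and Slc4a1 and Slc24a3 in UB against WD+IM were not tested under the stricter filter. Some calls were made in fewer of the alternatives that tested them. These were, in UB against WD, Slc26a1 in 6 of 20, Slc12a5 in 5 of 20, Slc12a4 in 13 of 20, Slc30a3 in 11 of 20, Slc30a4 in 10 of 21 and Slc20a1 in 13 of 21, in WD+IM against WD Slc39a10 in 9 of 22, Slc4a11 in 11 of 22 and Slc24a4 in 11 of 21, and in UB against WD+IM Slc39a11 in 11 of 22 and Slc26a8 in 12 of 21. Signals near the added constant, as for Slc9a9 in the UB, give differences that depend on it.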
